A study of Saccharomyces cerevisiae with 11 samples.

Results

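The vacuolar protein sorting (VPS) genes of budding yeast were found in screens for mutants that secrete enzymes which normally reach the vacuole, the lysosome of yeast. Their products act along the route from the Golgi through endosomes to the vacuole. Sorting receptors and coats pick cargo, ESCRT complexes form vesicles inside endosomes, retromer and GARP return receptors to the Golgi, and tethers with Rab GTPases fuse membranes. Start-site choice bears on such proteins in 2 ways, since an upstream start can draw ribosomes away from the main reading frame and an in-frame one can change the N-terminus. Members were the genes of the deposited SK1 annotation whose name is VPS followed by digits, which gave 45 of 6707 genes. Of these, 41 are classified there as verified and 4 as dubious. The rule goes by name, so VPS genes that this annotation calls otherwise (VPS23 as STP22, for example) are described as partners at the end. It also takes in VPS71, VPS72 and VPS75, whose products are known as chromatin proteins.

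The cells were of strain SK1, which sporulates readily. All 11 libraries were ribosome footprints from cells given 3 µM lactimidomycin (LTM), a drug that stalls ribosomes at start codons, and each was the sole library of its group. A pair came from vegetative cultures, 1 in exponential growth at OD600 0.6 and 1 saturated at OD600 10. The others came from sporulation medium at 0, 1.5, 3, 4.5, 6, 8, 10 and 22 h, with a MATa/a culture at 4.5 h, which cannot enter meiosis. No further genotype is labelled. The deposited table gives 1 value per candidate open reading frame (ORF) and names no library. VPS genes therefore could not be compared between conditions, no value has a replicate, and the depth per library is unknown. Each candidate has a forest score from 0 to 1, and candidates above 0.5 are called rated here. LTM evidence is the deposited strength of evidence for a start codon in the LTM data, and the CHX value is a deposited regression value from a data set named CHX that the notes do not describe further. Both enter the score, so they describe rated starts and do not check them. Their deposited names end in nosat, and which libraries entered them, the saturated culture included or not, is not stated. Neither has a stated scaling to length or depth, so values are compared within a gene and not ranked between genes. Intervals are exact 95% binomial intervals over candidates and cover counting error alone. No test was made, because the genes were chosen by name with earlier results known and the table has no replicates.

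Of the 45 genes, 42 had rows in the table, 1668 candidates of 192230 in all, and 212 of the 1668 were rated (12.7%, beside 13.5% of all candidates). The other 3, all dubious, had none. Upstream ORFs (uORFs), which lie before the annotated AUG, numbered 225, and 46 start-overlapping ORFs began before that AUG and ran past it in another frame. There were 952 out-of-frame internal candidates, 203 truncations, which start in frame inside the gene, and 12 extensions, which start in frame before it. 

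The starts that carry the account are shown with their sequence, so that the codon and its neighbours can be seen beside the values that follow. The SK1 genome was not used here. Each site was located in the S288C reference (RefSeq, R64) by its distance from the annotated AUG and kept where both the codon and the reading frame up to the stop codon were the same, which held for 46 of 53 rated uORFs, start-overlapping ORFs and truncations. Each line gives 30 bases on the coding strand, 5′ to 3′, and capitals mark the alternative start codon and, where it falls in the window, the annotated ATG. The upstream ORFs come first, in the order of their scores, then starts that overlap the annotated ATG.
VPS16 AUG, 102 before (chrXVI:467152-467181, plus strand): tccctaATGattataagcaatcgtctccat
VPS74 UUG, 176 before (chrIV:1222302-1222331, minus strand): attcttTTGtttcggtttgggctgctgcat
VPS8 AUG, 102 before (chrI:143599-143628, plus strand): gttacgATGatatacctgcgtgaaaaagga
VPS74 UUG, 234 before (chrIV:1222360-1222389, minus strand): ggtacgTTGactttttcagttctatatcgg
VPS25 AUU, 76 before (chrX:619818-619847, minus strand): tttaacATTttctcaactaaaccatttgaa
VPS13 GUG, 51 before (chrXII:63673-63702, minus strand): aatattGTGactaccaaaagggaaaaggca
VPS24 AUG, 98 before (chrXI:360039-360068, plus strand): atatatATGtatatacaccgaacaatagat
VPS4 AUG, 11 before (chrXVI:887825-887854, minus strand): tagtagATGgggtacaaATGagcacgggag
VPS38 AUG, 41 before (chrXII:846056-846085, plus strand): gaattgATGgttttacctattagggatagt
VPS53 UUG, 19 before (chrX:390849-390878, minus strand): ccatttTTGttttctcagaaggacaATGct
VPS5 AAG, 5 before (chrXV:453757-453786, plus strand): aataacAAGccATGgactacgaggataatc

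Annotated VPS reading frames were nearly all rated. Of 37 annotated ORFs listed under VPS genes, 36 passed (97.3%, interval 85.8 to 99.9), against 93.3% of all annotated ORFs. Annotated ORFs helped to train the score, so this share is not independent of it. The median score was 0.873 for the VPS genes and 0.896 over all annotated ORFs. LTM evidence at the annotated VPS starts ran from 12.4 to 29161. VPS55, an endosomal membrane protein, had the highest score (0.949), followed by VPS60, an ESCRT-III-like protein (0.940), and VPS17, a sorting nexin of retromer (0.934).

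The VPS63 entry is not a VPS start. VPS63 is a dubious frame that overlaps YPT6, a Rab GTPase gene, on the same strand. The annotated ORF listed under VPS63, of 215 codons with a score of 0.905, begins at 662147 of SK1 chromosome 12, the start of YPT6, while the frame of VPS63 runs from 661493 to 661819. Of the 36 annotated ORFs that do begin at the start of the gene named, 35 were rated.

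The exception was VPS28, a subunit of ESCRT-I, which binds ubiquitinated cargo. Its annotated start, at 437753 of SK1 chromosome 16 (plus strand), scored 0.448 with LTM evidence of 12.4. An out-of-frame AUG 58 nucleotides inside VPS28, which opens an ORF of 9 codons, scored 0.911 with LTM evidence of 28997, or 2334 times that of the annotated AUG. Its CHX value was 9.84 times that of the annotated ORF. VPS52, a subunit of GARP, showed the same order on a smaller scale. Its annotated AUG scored 0.662 with LTM evidence of 18.8, and an out-of-frame AUG 4 nucleotides further on scored 0.830 with 10.9 times the LTM evidence. VPS9, the exchange factor for the Rab GTPase VPS21, had an out-of-frame AUG 7 nucleotides inside with a score of 0.922 and LTM evidence of 2254 against 579 at its annotated AUG (ratio 3.89), which was itself rated (0.910). The deposited notes warn that internal calls have a very high false positive rate from elongating ribosomes, and these 3 were picked after their values had been seen. The same S288C display shows how close the AUG pairs of VPS52 and VPS9 lie, and the surroundings of the VPS28 site.
VPS28 internal AUG (chrXVI:427979-428008, plus strand): tccacgATGaagtacccttattcgacaact
VPS52 annotated and internal AUG (chrIV:1422757-1422786, plus strand): agaactATGgATGttctcaaagaggtgttg
VPS9 annotated and internal AUG (chrXIII:79667-79696, minus strand): acagccATGactgATGatgaaaagagggag

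No annotated ORF was listed for VPS8, VPS30, VPS1, VPS62 and VPS70. In the last 3 the coding length of the SK1 annotation is not a multiple of 3. VPS1, the dynamin-like GTPase, was represented by an ORF of 450 codons from its annotated AUG (448316 of chromosome 11, score 0.757, LTM evidence 936). VPS70 was represented by an AUG 72 nucleotides downstream of the annotated start, with an ORF of 345 codons (score 0.842, LTM evidence 15039). Both belong to the class for transcripts with no annotated coding sequence in the table. In VPS62 the ORF of 225 codons from the annotated AUG was not rated (0.114), and an 8-codon AUG ORF 115 nucleotides inside was (0.717).

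**Figure D1:**
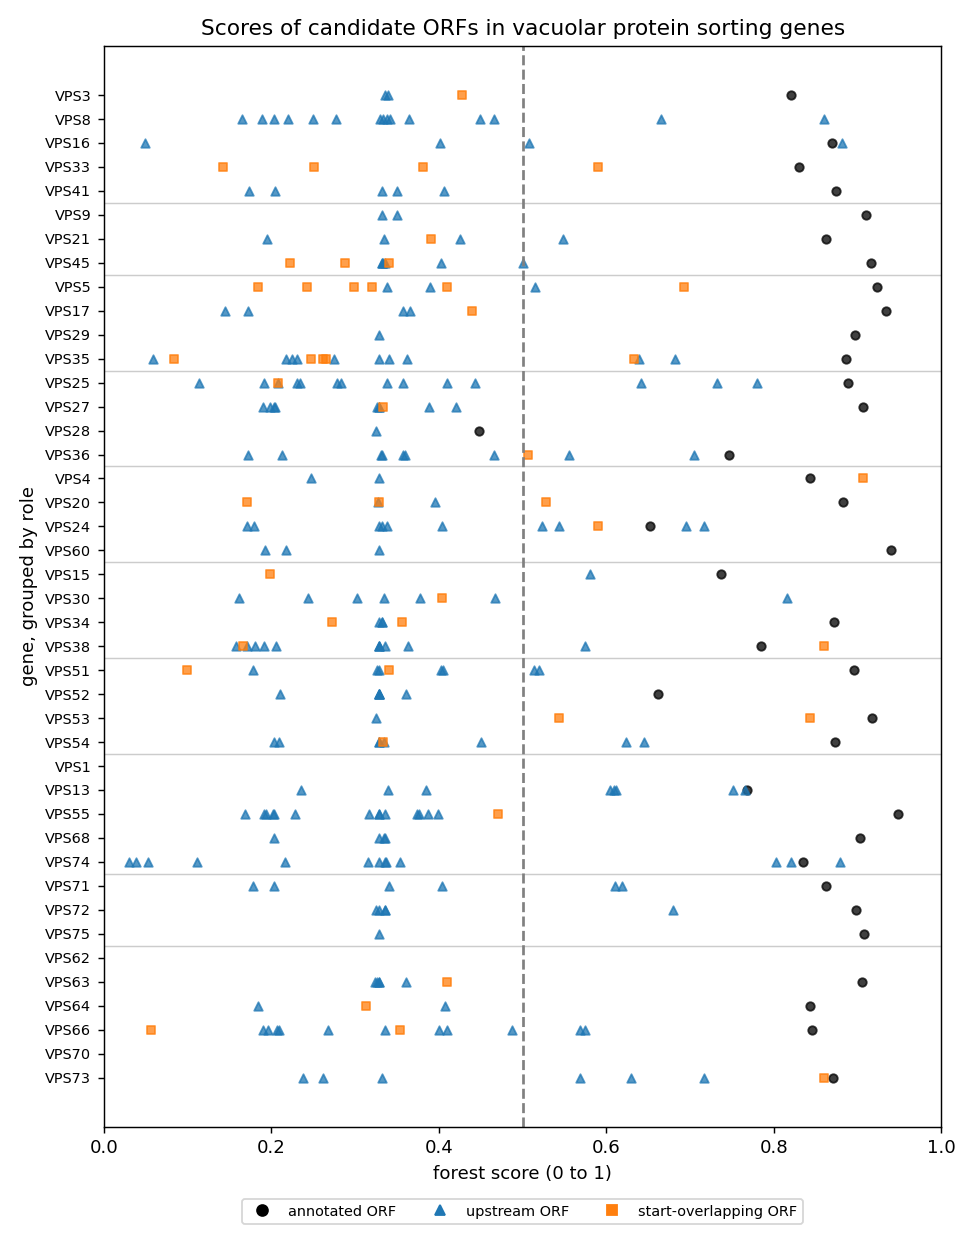
Forest scores (0 to 1, horizontal axis) of annotated, upstream and start-overlapping candidates for each of the 42 VPS genes with rows, grouped by role. VPS1, VPS62 and VPS70 have no candidate of these classes, and the annotated ORF under VPS63 begins at the start of YPT6. Each point is 1 candidate and the dashed line marks 0.5. The annotated ORF of VPS28 lies left of the line, and the other 36 lie right of it.

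Upstream ORFs were rated in 20 of the 38 VPS genes with a candidate (52.6%), against 58.2% of such genes over the whole table. The 38 include VPS63, whose annotated ORF begins at the start of YPT6, with 5 candidates and none rated. VPS63 also stays in the counts of the other classes. In all, 41 of 225 candidates were rated (18.2%, interval 13.4 to 23.9), and the share over all genes was 22%. AUG uORFs were rated in 19 of 61 cases (31.1%, interval 19.9 to 44.3), near the 29.3% of all genes, and near-cognate uORFs in 22 of 164 (13.4%, interval 8.60 to 19.6), where all genes had 19.4%. The 3 intervals for VPS genes include the shares over all genes. Among near-cognate codons UUG contributed most, with 7 of 29 candidates rated (24.1%, and 33.1% over all genes). AUA followed with 5 of 32 (15.6%, and 16.7% over all genes) and GUG with 4 of 20 (20%, and 20.6% over all genes). AUU gave 2 of 30, and CUG, AUC, ACG and AAG gave 1 each, of 14, 16, 5 and 13. Their shares over all genes were 16.7% for AUU, 26.2% for CUG, 10.8% for AUC, 19.3% for ACG and 4.07% for AAG. None of 5 AGG candidates was rated, beside 4.44% over all genes.

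**Figure D2:**
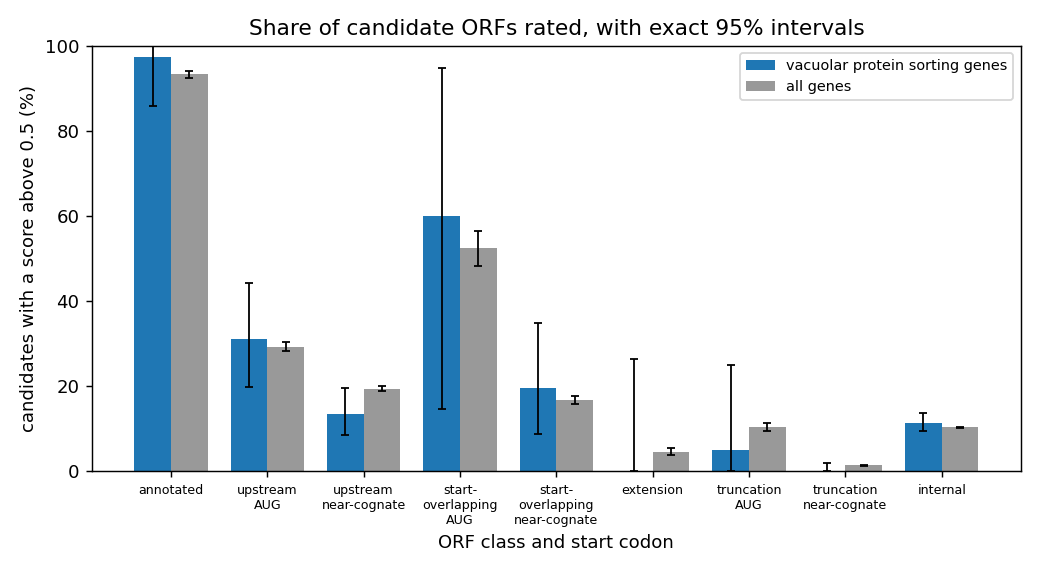
Percentage of candidates with a score above 0.5 (vertical axis) by ORF class and start codon, for VPS genes and for all genes. Bars start at 0 and error bars are exact 95% intervals. In VPS genes 31.1% of AUG and 13.4% of near-cognate upstream ORFs were rated, and 0 of 12 extensions.

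The highest-rated VPS uORF was in VPS16, a core subunit shared by the tethers HOPS and CORVET. It is an AUG ORF of 11 codons at 470747 to 470782 of SK1 chromosome 16, in the leader 102 nucleotides before the annotated start, with a score of 0.881. Its LTM evidence was 33024 and that of the annotated AUG 4845, a ratio of 6.82, and its CHX value was 0.891 times that of the coding ORF. VPS8, a CORVET subunit with no annotated ORF in the table, had a similar AUG uORF, also 102 nucleotides before the annotated AUG. It has 17 codons at 152646 to 152699 of chromosome 1, a score of 0.860 and LTM evidence of 17103. A second VPS8 uORF, 477 nucleotides before the AUG, scored 0.665. Both genes thus had a rated AUG in the leader. VPS3 and VPS41 had uORF candidates but none rated. VPS33, the SM subunit of the tethers, had no uORF candidate and a rated UUG start-overlapping ORF (0.590).

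VPS74, which holds glycosyltransferases in the Golgi, had 3 rated uORFs, all from UUG and each ending at a stop codon of its own. The UUG 176 nucleotides before the annotated AUG (9 codons, chromosome 4, 1213771 to 1213800, minus strand) scored 0.880, with LTM evidence of 276 beside 278 at the annotated AUG. The UUG 166 nucleotides before it scored 0.820 (LTM evidence 133), and the UUG 234 nucleotides before it scored 0.802 with LTM evidence of 717, or 2.58 times that of the annotated start. The annotated ORF scored 0.835, between these values.

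Among ESCRT genes, VPS25 of ESCRT-II carried the start with the largest ratio to its annotated AUG of all rated VPS starts before the AUG. Its AUU uORF (21 codons, 76 nucleotides before the AUG, chromosome 10, 634436 to 634501, minus strand) scored 0.780 with LTM evidence of 4485, against 335 at the annotated AUG, a ratio of 13.4. Its CHX value was 0.158 times that of the coding ORF. An AUG uORF 295 nucleotides and a UUG uORF 57 nucleotides before the AUG were also rated (0.732 and 0.642). VPS36, the other ESCRT-II member, had an AUA uORF (0.704) and an AUG uORF close to the threshold (0.555). VPS27 of ESCRT-0 had 9 uORF candidates and VPS28 had 1, with none rated.

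VPS24, an ESCRT-III subunit, had several rated starts before its annotated AUG. The annotated AUG scored 0.652 with LTM evidence of 155. An AUG uORF 98 nucleotides before it scored 0.717 with LTM evidence of 999 (ratio 6.42), although its CHX value was 0.0169 times that of the coding ORF. An AUC start (0.696) and a GUG start (0.544) opened shorter versions of the same uORF and ended at the same stop codon, so these 3 are not independent. Of the 3, the AUC start had the highest CHX value, 0.737 times that of the ORF from the annotated AUG, and the GUG start had 0.270 times. That annotated ORF had 0.180 times the CHX value of the strongest ORF with its stop codon. The strongest was an unrated AGG truncation with a CHX value of 0.419, beside 0.0555 for the AUC and 0.0204 for the GUG start. A UUG uORF 472 nucleotides before the AUG was rated as well (0.524), as was a UUG start-overlapping ORF (0.590). VPS24 also had the best-scored extension of any VPS gene, a UUG codon directly before the AUG, with a score of 0.417 that misses the threshold and LTM evidence of 64.1. In S288C that pair of codons reads as follows.
VPS24 UUG and annotated AUG (chrXI:360134-360163, plus strand): ttacttTTGATGgattatataaaaaaagcc

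VPS13, the bridge-like lipid transfer protein, had the most rated uORFs, 5 of 8 candidates. A GUG uORF 51 nucleotides before the AUG scored 0.752 with LTM evidence of 2061, and an AUA uORF 61 nucleotides before it scored 0.766 with 124. These LTM values are small beside the 28188 at the annotated start, with ratios of 0.0731 and 0.00442. The CHX values of the GUG and AUA uORFs were instead 1.81 and 6.20 times that of the ORF from the annotated AUG, which was 0.0137. That annotated ORF had only 0.0559 times the CHX value of an unrated AAG truncation (score 0.133) that ends where it does. The truncation had a CHX value of 0.245, above the 0.0247 of the GUG and the 0.0848 of the AUA uORF. The CHX values therefore do not place these uORFs above the VPS13 reading frame as a whole. The AUA uORF shared its stop codon with a UUG uORF (0.605), and an AUU uORF (0.609) and a distant AUG uORF 378 nucleotides before the start (0.611) completed the set. VPS13 is also the longest VPS gene, at 3144 codons.

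In the retromer genes, VPS35, the central cargo subunit, had an AUG uORF (13 codons, score 0.682) and an AUA uORF (0.639), and VPS5, a sorting nexin, a 2-codon AUG uORF (0.514). VPS17 and VPS29 had none rated. In the lipid kinase complex, VPS30, which autophagy also uses, had a 4-codon AUG uORF 80 nucleotides before its AUG with a score of 0.816 and LTM evidence of 394. VPS15, the protein kinase partner of the lipid kinase, had a UUG uORF (0.581), VPS38 a CUG uORF (0.574), and the kinase VPS34 none rated. At the matching distance S288C has UAU in place of the VPS30 uORF's AUG and UGU in place of that of VPS35. A change of leader length between strains would also shift the position, which was not tested. VPS73 had 3 rated AUG uORFs, with scores of 0.717, 0.630 and 0.568. The chromatin genes VPS71 (2 AUG uORFs with the same stop codon, 0.618 and 0.611) and VPS72 (an AUG followed directly by a stop codon, 0.679) had rated uORFs, and VPS75 had none. VPS54 of GARP (ACG 0.645 and AUA 0.624), VPS51 of GARP (AUG 0.519 and 0.514), VPS66 (0.575 and 0.569), VPS21 (AAG 0.549) and VPS45, the SM protein that controls SNARE assembly at endosomes (GUG 0.501), complete the 20 genes. The 41 uORFs end at 36 different stop codons.

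**Figure D3:**
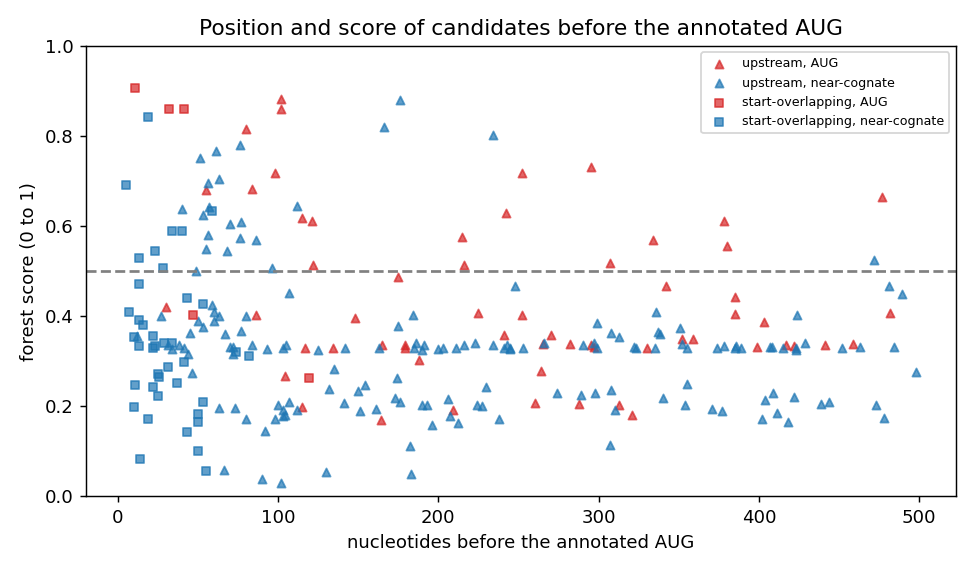
Forest score (vertical axis, 0 to 1) against the distance in nucleotides before the annotated AUG for uORF and start-overlapping candidates of VPS genes other than VPS63. Red points are AUG and blue points near-cognate starts, and the dashed line marks 0.5. Rated near-cognate uORFs cluster near the AUG, with a median of 69 nucleotides.

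Rated near-cognate uORFs of VPS genes lay close to the coding region. Their median distance was 69 nucleotides (quartiles 56 and 93.5, n = 22), and that of unrated near-cognate candidates 211 nucleotides (n = 139, VPS63 left out). Over all genes no entry was left out, here or for the AUG uORFs that follow, and the medians were 104 and 181. Rated AUG uORFs of VPS genes lay further out, with a median of 215 nucleotides (n = 19) beside 267.5 for unrated ones (n = 40), and 188 and 246 over all genes. The 3 UUG starts of VPS74 and the distant UUG of VPS24 are the rated near-cognate uORFs furthest from the AUG. The base 3 positions before the start, known to be most often A at good yeast start sites, was A in S288C for 9 of 16 rated AUG uORFs of VPS genes (56.2%) and 9 of 33 unrated ones (27.3%). The shares over all genes were 31.7% and 32.7%, and annotated AUGs had A there in 57.1% of rated VPS genes and 64.3% of all. The 16 include starts that share a leader, so the values are a description.

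Start-overlapping ORFs were rated in 11 of 46 cases (23.9%, interval 12.6 to 38.8), beside 20.2% over all genes, in 10 of 25 genes with a candidate (40%, and 35.7% over all genes). AUG starts made up 3 of the 11, from 5 AUG candidates (60%, and 52.4% over all genes), and near-cognate starts 8 of 41 (19.5%, and 16.8% over all genes). VPS4, the ATPase that takes ESCRT-III apart, had the highest score of any VPS start before the AUG, 0.907. Its AUG lies 11 nucleotides before the annotated AUG and its ORF of 4 codons ends at a TGA that shares 2 bases with the annotated ATG, as its sequence line shows. LTM evidence there was 1252 and at the annotated AUG 2066, a ratio of 0.606, while the CHX value was 0.0726 times that of the coding ORF. VPS38, the subunit that directs the lipid kinase to endosomal sorting, had an AUG 41 nucleotides before its start with a score of 0.860. Its LTM evidence was 437 against 127 at the annotated AUG (ratio 3.43), and its CHX value 1.42 times that of the coding ORF. VPS73 had an AUG 32 nucleotides before its start (0.860) with LTM evidence of 3156 against 1289 (ratio 2.45) and a CHX value 2.89 times that of the coding ORF.

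The near-cognate start-overlapping ORFs had less LTM evidence beside their annotated starts. VPS53 had a UUG 19 nucleotides before its AUG with a score of 0.843, LTM evidence of 49.4 and a ratio of 0.00172. VPS5 had an AAG 5 nucleotides before its AUG (score 0.692, LTM evidence 38.2, ratio 0.0143), and VPS35 a GUG 59 nucleotides before it (0.633, ratio 0.0212). The others were in VPS33, VPS24, VPS20, VPS36 and a second one in VPS53, with scores from 0.507 to 0.590.

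Ratios above 1 were found in 6 of the 37 genes with an annotated ORF (16.2%), close to the 15.4% over all genes. These were VPS25, VPS16, VPS24, VPS74, VPS38 and VPS73. For the 38 rated uORFs with an annotated ORF to compare, the median ratio was 0.0149 (quartiles 0.00432 and 0.198), and 4 exceeded 1 (10.5%). Over all genes the median was 0.0213 and 16.7% exceeded 1. Among the 11 start-overlapping ORFs the median was 0.0143 and 2 exceeded 1 (18.2%, beside 19.8% over all genes). At most rated VPS starts before the AUG, LTM evidence was therefore far below that of the annotated start. In 5 genes, VPS4, VPS16, VPS24, VPS38 and VPS74, a start before the annotated AUG had a higher forest score than the annotated ORF (13.5% of 37, and 17.4% over all genes).

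**Figure D4:**
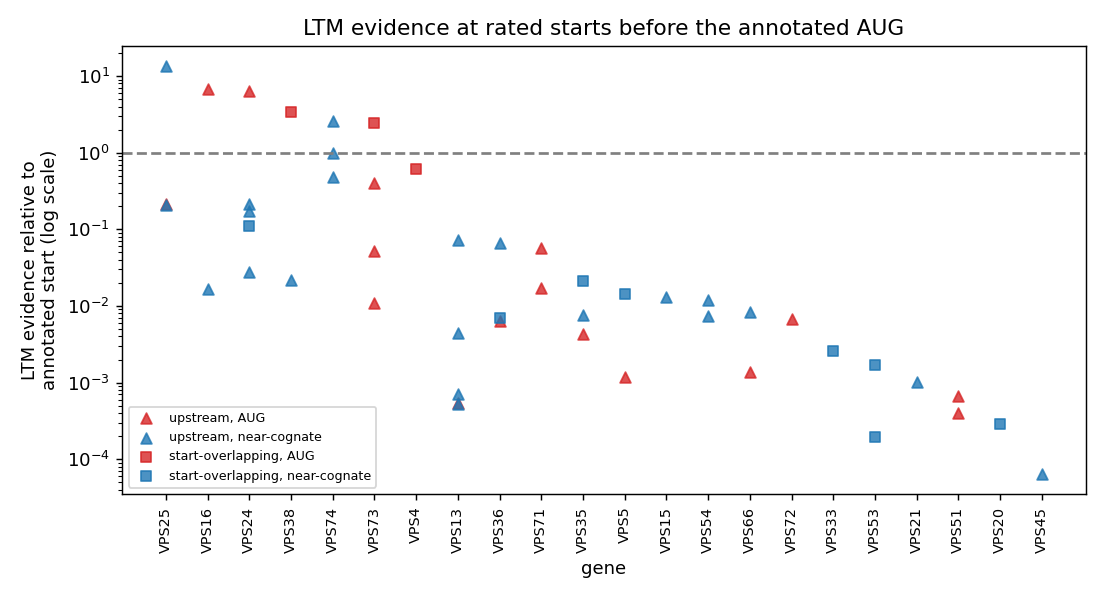
LTM evidence of each rated start before the annotated AUG divided by that of the annotated start of the same gene (vertical axis, log scale), by gene. Triangles are uORFs, squares start-overlapping ORFs, red AUG and blue near-cognate. 6 genes have a point above the dashed line at 1, and the highest is the AUU of VPS25 at 13.4.

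In-frame alternative starts were rarely rated, in VPS genes as over all genes. All 12 candidate extensions, in 10 genes, began at near-cognate codons and none was rated (interval 0 to 26.5%), beside 4.57% of all extensions and 3.64% of near-cognate ones. The interval includes both shares. After the UUG of VPS24, the next was an AUC in VPS54 at 0.121. Of 203 truncation candidates, 1 was rated (0.493%, interval 0.0125 to 2.71), beside 2.71% over all genes, which lies at the upper end of the interval. The rated truncation was 1 of 20 from AUG (5%, and 10.3% over all genes). It is an AUG 5 codons inside VPS3, the CORVET subunit that binds the Rab GTPase VPS21, at 1432956 of chromosome 4 (minus strand). Its score was 0.630 and its LTM evidence 171, or 0.0716 times the 2389 at the annotated AUG, which scored 0.820. S288C has ACG in place of this AUG. None of 183 near-cognate truncations was rated (1.38% over all genes), the nearest being an AUU 15 codons inside VPS68 at 0.497.

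Out-of-frame ORFs inside VPS genes were rated in 109 of 952 cases (11.4%, beside 10.3% over all genes), in 31 of 39 genes with a candidate (79.5%, and 65.3% of such genes over the whole table). The share by gene was not adjusted for length, and annotated VPS ORFs had a median of 486 codons, beside 401.5 over all. AUG starts were rated in 44 of 170 cases (25.9%, beside 23% over all genes) and near-cognate starts in 65 of 782 (8.31%, beside 7.45%). VPS13, the longest VPS gene, held 32 of the 109, from 150 candidates, and VPS3 held 8, from 50. The share over VPS genes therefore rests in part on VPS13. In VPS41, a HOPS subunit, an AUG 22 nucleotides inside opened an ORF of 34 codons with a score of 0.839 and LTM evidence of 6641, beside 10400 at the annotated AUG. In VPS36 an AUG 175 nucleotides inside scored 0.872 with LTM evidence of 1199, above the 376 at its annotated AUG. VPS13 also had the single rated ORF over a stop codon among VPS genes, a CUG ORF of 29 codons (0.550) out of 10 candidates, and the share over all genes was 7.87%. In the class without an annotated coding sequence, 12 of 131 candidates were rated (9.16%, beside 12.7% over all genes), and 11 of the 12 were in VPS1, among them an AUA 44 nucleotides before the annotated AUG with a score of 0.740 and LTM evidence of 240. The class to which the VPS62 rows belong, with a coding sequence on another transcript, had 1 of 51 rated (1.96%, beside 9.45% over all genes).

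The partner list held 32 genes of the same route whose annotated names lack VPS, and all 32 had rows. Of 29 annotated ORFs 28 were rated (96.6%, and 93.3% over all genes). Of 160 uORFs 30 were rated (18.8%, and 22% over all genes), in 15 genes. Of 33 start-overlapping ORFs 13 were rated (39.4%, and 20.2% over all genes), in 9 genes. None of 6 extensions (4.57% over all genes) and 1 of 231 truncations (0.433%, and 2.71% over all genes) was rated. The annotated ORF that missed belongs to MUK1, an exchange factor for VPS21 related to VPS9. It scored 0.273 with LTM evidence of 7.90, and the gene had 6 rated uORFs. The strongest was an AUC 88 nucleotides before the AUG with a score of 0.916 and LTM evidence of 2427, or 307 times the annotated start. A rated AUU directly after it, 85 nucleotides before the AUG (score 0.745), opened a shorter version of the same uORF. The AUC and AUU starts are therefore not independent. PEP1, the receptor also called VPS10, had a UUG start-overlapping ORF (0.796) whose LTM evidence was 14.3 times higher than at its annotated start. YPT7 had an AUA start-overlapping ORF (score 0.907, ratio 4.49) beside an annotated ORF that scored 0.693. SNF7, the main ESCRT-III subunit, had a UUG uORF (score 0.914, ratio 1.46). VTI1, a SNARE, had an AUG start-overlapping ORF 10 nucleotides before its start (score 0.937, ratio 1.33). The rated truncation was in PEP7, an effector of VPS21, where an AUG 36 nucleotides inside scored 0.862 with 1.35 times the LTM evidence of the annotated start. These genes were named after their values had been seen.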

How the data were processed

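Footprints of 11 LTM-treated SK1 cultures were processed with CASAVA, bcl2fastq 2.17 and Bowtie2, per the submitters' processing notes. Their settings, rRNA removal and the libraries behind the table are not stated. Per the notes deposited with the table, the authors fitted regressions, and a random forest on 6 features gave the forest score. The deposited rating is an adjusted score where the forest score exceeds 0.5. A deposited ratio, to the strongest ORF of a stop codon, was used for VPS13 and VPS24 alone. There were 0 columns of single libraries, so no depth or condition can be given.

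Members and lists were chosen with earlier results of these data known. Rated means a score above 0.5, 1 of 2 cut-offs in the notes. Coordinates are of the SK1 annotation, counted from 1. Shares have exact (Clopper-Pearson) 95% intervals. Counting was tested on simulated scores. Named genes were those with a rated extension or AUG truncation, the 10 highest uORFs, the 5 with most uORFs, the 5 highest start-overlapping ORFs, unrated annotated ORFs and dubious genes. Others named complete a count or role group. Python 3.11.15, pandas 2.3.3, SciPy 1.17.1 and matplotlib 3.10.9 were used. A gene and a sequence that these rules select are not reported here.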

Additional observations from a re-analysis of the deposited data

How the results depend on the processing

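The counts depend mostly on the score cut-off. Above 0.1, 220 uORFs in 38 VPS genes, 43 start-overlapping ORFs, 53 truncations and 2 extensions passed. Above 0.8 these were 6 uORFs in 4 genes, 4 start-overlapping ORFs and 0 truncations. Above 0.9, 11 annotated ORFs, 0 uORFs in 0 genes, 1 start-overlapping ORF and 0 truncations passed. With AUG starts alone there were 19 uORFs and 3 start-overlapping ORFs. The deposited adjusted rating, genes with a rated annotated ORF, leaving out dubious genes, 1 candidate per start position and, added after seeing the data, leaving out candidates that overlap another coding sequence kept each count run within 1.5 times of the reported one. No paired analysis was possible because each group has 1 library and the table has no library columns. With the depth unknown, a start below the cut-off is not shown to be unused.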
